A study of Mus musculus with 6 samples.

Results

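Of the 54752 genes in the RIP-seq table, 10 are set apart here by symbol as genes that control cell growth through Myc and mTOR. They are the transcription factors Myc and Mycn, their partner Max and the Max-binding repressor Mnt, the kinase Mtor with its subunit Rptor and its activator Rheb, the translational repressors Eif4ebp1 and Eif4ebp2, and the S6 kinase Rps6kb1. All 10 were in the table, and all 10 had a mean input of at least 1 FPKM (fragments scaled to transcript length and library size), the minimum for a test, which 12576 genes met.

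Myc proteins bind DNA as dimers with Max and raise the transcription of genes for ribosome biogenesis, metabolism and division, while Mnt competes for Max and represses many of the same genes. The kinase mTOR works within the complex mTORC1, which Raptor (encoded by Rptor) defines and the GTPase Rheb activates. Active mTORC1 phosphorylates S6 kinase and the 4E-BP proteins, which releases the cap-binding factor eIF4E for translation. Dividing B cell progenitors rely on both arms downstream of the IL-7 and pre-B cell receptors. LIN28B, an RNA-binding protein of fetal cells, blocks the maturation of let-7 miRNAs and also binds many mRNAs directly.

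RNA was sequenced from the IP and the input of 2 tet-LIN28B mice and 1 littermate control, which makes 6 libraries. tet-LIN28B mice carried a Dox-inducible cDNA of human Lin28b with a Flag tag at the Col1a locus together with the Rosa26 rtTA*m2 activator, with 1 copy of the transgene. The control was heterozygous for Rosa26 rtTA*m2 alone, so the activator was common to both groups. Bone marrow of adult mice was freed of red cells and adherent cells and was grown in IL-7 (20 ng/mL) and Dox over 5 days, so that all 3 cultures received Dox. RNA bound by Flag-tagged protein was then pulled down with an anti-Flag antibody (IP), and part of the same lysate served as input. The control holds no Flag-tagged LIN28B, and its IP is therefore the background of antibody and beads. The labels call the tet-LIN28B samples biological replicates, while the study's text calls them technical ones in 1 place.

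Depth is unknown, since FPKM carry no counts. The FPKM of a library summed to between 1144868 and 1384941, and the 3 inputs correlated across genes at r = 0.956 to 0.965. The input FPKM of the mouse Lin28b row were 0.62 and 1.03 with the transgene and 0.01 without it, which is no measure of the human transgene. Of 12 B cell progenitor markers, 10 exceeded 10 FPKM in every input, and their summed input was 7904 and 9174 FPKM in the tet-LIN28B mice and 9732 FPKM in the control. Of 21 markers of other cells, 6 stayed under 1 FPKM in every input (among them the erythroid gene Klf1 and the stromal gene Col1a1), while the myeloid genes S100a8 and Lyz2 and the megakaryocyte gene Pf4 were abundant. The 21 markers of other cells had a summed input of 4561 and 2794 FPKM in both tet-LIN28B cultures, against 3549 FPKM in the control culture. Of these sums, S100a8 alone gave 2988.81 and 1847.56 FPKM, and 2667.23 FPKM in the control. The median log2 input difference, tet-LIN28B minus control, was 0.40 over the 15 of the 21 that were tested. It was -0.22 over the 12 B cell progenitor markers and -0.04 over all genes, and no marker was called. In the IPs the 21 markers summed to 1089 and 643 FPKM in the tet-LIN28B mice and to 1897 FPKM in the control. The part of the other cells in the results below was not tested. In such bulk samples, fewer cells of a type and less RNA per cell cannot be told apart.

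LIN28B can reach an mRNA by direct binding, for which GGAG is a known motif, or through the let-7 miRNAs, so both kinds of letters were read in the members' transcripts. The let-7 miRNAs share the seed at bases 2 to 8, shown in capitals for a pair of them (RefSeq, GRCm38.p6).
mmu-let-7a-5p: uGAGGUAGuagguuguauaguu
mmu-let-7g-5p: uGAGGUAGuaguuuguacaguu
The letters that pair with this seed, CTACCTC, were in 0 of the 10 3′UTRs, against 8.83% of the 20859 genes with an annotated 3′UTR (GENCODE M21, GRCm38, the longest coding transcript of each gene, sense strand). Anywhere in the transcript, they were in 2 of the 10 members and in 21.05% of 21574 genes. Both members carried them in the coding sequence, Eif4ebp2 once at chr10:61452442-61452471 and Rps6kb1 in 2 places at chr11:86519900-86519929 and chr11:86512825-86512854, all on the minus strand of GRCm38. These are the only matches to bases 2 to 8 among the members, with the 7 letters in capitals.
Eif4ebp2 coding sequence: gacgccgcgcagCTACCTCaggactactgc
Rps6kb1 coding sequence, first: cggaggaaagctCTACCTCatcctcgagta
Rps6kb1 coding sequence, second: taatttgcctccCTACCTCacacaagaagc
The shorter TACCTC, which pairs with bases 2 to 7 of let-7 and lies within the longer match, was in the 3′UTR of 6 members and of 23.05% of genes. Mnt held it 3 times, Mycn 2 times, and Mtor, Rheb, Eif4ebp1 and Eif4ebp2 1 time each. The letter after TACCTC was A in both Mycn sites, the first Mnt site, and the Mtor and Rheb sites. The share of genes with that longer form, TACCTCA, was not counted. Myc, which the paper lists among let-7 targets, held neither TACCTC nor CTACCTC in its 3′UTR. The members' 3′UTRs run from 442 bases in Myc to 5306 bases in Eif4ebp2, with a median of 937 bases over all genes, and a longer 3′UTR has more places for a match. The sites of the 3 most abundant members that carry one lie at chr8:27275270-27275299 on the plus strand (Eif4ebp1), chr5:24802961-24802990 on the minus strand (Rheb) and chr10:61433317-61433346 on the minus strand (Eif4ebp2).
Eif4ebp1 3′UTR: tgaacaccagcacaTACCTCcttgtgcctc
Rheb 3′UTR: aaccccggctctttTACCTCacttggcccc
Eif4ebp2 3′UTR: ggagcacagtcctgTACCTCctgcacctct

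GGAG was counted per kilobase of transcript on the sense strand, and the median gene held 6.58. Mnt was highest among the members with 9.59 per kilobase, above 82.1% of genes, and Rheb lowest with 4.48, above 21.9% of genes. Myc held 7.70, Eif4ebp2 7.43 and Eif4ebp1 5.01 per kilobase. The stretch of 60 coding bases with the most GGAG is shown, with these letters in capitals, for Mnt, the member with the highest IP/input, for Myc, and for Eif4ebp1 and Eif4ebp2, which differed most between tet-LIN28B and control. In GRCm38 these stretches lie at chr11:74836363-74836422 (Mnt, plus strand), chr15:61987790-61987849 (Myc, plus strand), chr8:27260491-27260550 (Eif4ebp1, plus strand) and chr10:61452402-61452461 (Eif4ebp2, minus strand).
Mnt: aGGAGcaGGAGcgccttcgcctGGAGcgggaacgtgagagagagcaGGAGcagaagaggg
Myc: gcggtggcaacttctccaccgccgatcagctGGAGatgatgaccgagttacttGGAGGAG
Eif4ebp1: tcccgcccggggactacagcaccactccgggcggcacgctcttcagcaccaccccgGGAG
Eif4ebp2: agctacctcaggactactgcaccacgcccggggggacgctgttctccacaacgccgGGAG
Mnt held 4 GGAG and Myc 3 within such a stretch, and Eif4ebp1 and Eif4ebp2 held 1 each, so that no 60 coding bases within an exon of either repressor held more. Of the members not shown, Mycn, Mtor, Rptor and Rps6kb1 held 3 each, and Max and Rheb 1 each. A longer coding sequence has more such stretches, and that of Eif4ebp2 is only 363 bases. A match is a description of the letters and not a bound site.

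In the inputs, the members ranged from Mnt, with 14.2% of the genes tested below it, to Eif4ebp1, with 91.8% below it. FPKM are scaled to transcript length, so genes can be set beside each other. Eif4ebp1 was the most abundant (147 ± 14.6 FPKM, SD, n = 3 inputs), followed by Rheb (128 ± 2.97 FPKM) with 90.9% of genes below it. Myc followed at 42.3 ± 1.14 FPKM and Max at 34.7 ± 6.33 FPKM, and the ranges of this pair overlapped. Next came Rps6kb1 at 26.4 ± 1.10 FPKM and Eif4ebp2 at 16.8 ± 2.55 FPKM. Mtor (12.4 ± 1.21 FPKM) and Rptor (9.94 ± 1.75 FPKM) overlapped in range. Mycn at 4.68 ± 1.41 FPKM and Mnt at 2.13 ± 0.280 FPKM were the lowest. No other neighbours in this order overlapped over the 3 inputs.

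**Figure D1:**
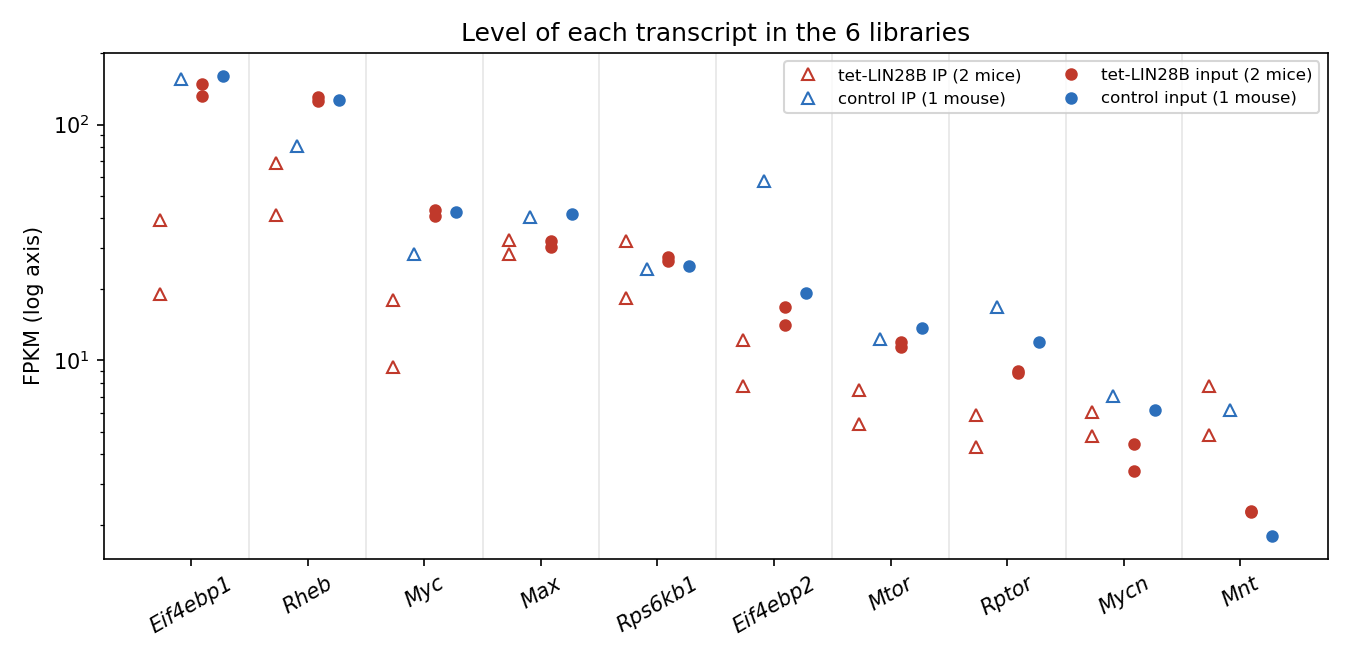
FPKM of the 10 genes (log axis) in the IPs (open triangles) and the inputs (filled circles) of the 2 tet-LIN28B mice (red) and the control mouse (blue), 1 point per library. Inputs of Myc and Rheb nearly coincide between the genotypes, and those of Mycn (4.44 and 3.4 against 6.19 FPKM) lie further apart. The tet-LIN28B IPs of Eif4ebp1 (19.16 and 39.58 FPKM) and Eif4ebp2 (7.8 and 12.23 FPKM) sit far below the control IP (156.25 and 57.54 FPKM).

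The first question was whether induced LIN28B moved the level of these transcripts in the culture. The values are RNA from cells in 20 ng/mL IL-7, and protein was not measured in these libraries. In cultured Pro-B cells, the paper reports that LIN28B raised c-MYC protein only when IL-7 was limiting. That condition is not among the 6 libraries. None of the 10 passed the test for a difference in input (limma on log2(FPKM + 1), Benjamini-Hochberg adjustment over all genes), and neither did any of the 12576 genes, a share of 0% in each direction. At an unadjusted p under 0.05 there were 279 genes higher (2.22%) and 401 lower (3.19%), and 1 member, Max. The input of Myc was 41.05 and 43.28 FPKM in tet-LIN28B cells and 42.6 FPKM in control cells, so that the control lay between both mice. The log2 difference of Myc was -0.01, with a 95% interval of -0.41 to 0.38, and turned to 0.03 when each library was scaled to the same sum (TPM). Rheb was equally close, at 125.64 and 131.43 FPKM in tet-LIN28B cells against 127.39 FPKM in control cells (log2 difference 0.01, 95% interval -0.37 to 0.39).

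The other members were spread more widely. Max, with which Myc, Mycn and Mnt pair, was at 31.97 and 30.14 FPKM in tet-LIN28B cells and at 41.9 FPKM in control cells, a log2 difference of -0.42 (limma, unadjusted p = 0.0461, adjusted p = 0.835). Mycn was at 4.44 and 3.4 FPKM in tet-LIN28B cells and at 6.19 FPKM in control cells, a log2 difference of -0.56 that was the largest in size among the 10 and had the widest interval (-1.29 to 0.18). Both tet-LIN28B inputs lay below the control for 6 members (Mycn, Max, Mtor, Rptor, Eif4ebp1 and Eif4ebp2), against 40.5% of all genes tested. Both lay above it for 2 members (Mnt and Rps6kb1), against 28.6% of all genes. The 1 control is assumed by the test to vary like the tet-LIN28B mice. With 1 residual degree of freedom, the p-values rest on a spread shared across genes, and an exact permutation test of 2 mice against 1 could not go below p = 0.333.

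The second question was which of these transcripts the anti-Flag antibody carried into the IP of tet-LIN28B cells. The ratio of IP to input FPKM was taken within each mouse, and the tests were run on its log2 after adding 1 FPKM to each value, which understates the change of low genes. In the mean of both tet-LIN28B mice, 1 member was higher in IP than in input (Mnt), 5 were lower (Myc, Mtor, Rptor, Rheb and Eif4ebp1) and 4 did not pass. Of all genes tested, 13.9% were higher and 31% lower, and the median log2 ratio was -0.66 over the 10 members and -0.32 over all genes. The IP is itself scaled to its own library size, so a value under 1 means a smaller share of the IP than of the input.

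Myc gave 9.42 and 18.01 FPKM in the tet-LIN28B IPs and 28.27 FPKM in the control IP. Its IP/input was 0.229 and 0.416 in tet-LIN28B cells and 0.664 in control cells, so that all 3 mice were under 1 and both tet-LIN28B mice were under the control. The tet-LIN28B log2 ratio of Myc was -1.62 (SE 0.25, limma adjusted p = 0.00975). Mycn, the paralogue of Myc, had IPs of 4.77 and 6.02 FPKM in tet-LIN28B cells and 7.07 FPKM in control cells. The IP/input of Mycn was 1.07 and 1.77 in tet-LIN28B cells and 1.14 in control cells, with the control between both mice, and its log2 ratio of 0.38 did not pass (adjusted p = 0.246). With each ratio centred on the median gene of its mouse, Mycn passed at 0.68 (adjusted p = 0.0466).

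Max, the common partner, gave similar values in IP and input in each of the 3 mice. Its IPs were at 32.41 and 28.28 FPKM in tet-LIN28B cells and at 40.7 FPKM in control cells, with IP/input of 1.01 and 0.938 against 0.971. Its log2 ratio of -0.03 did not pass (adjusted p = 0.875), and it turned to 0.07 with TPM and to 0.27 when centred. Mnt, the repressor, had IPs of 4.81 and 7.83 FPKM in tet-LIN28B cells and 6.14 FPKM in control cells. The IP/input of Mnt was 2.11 and 3.39 in tet-LIN28B cells and 3.39 in control cells, so that the control IP held as much of it over input. The tet-LIN28B log2 ratio of 1.12 (SE 0.25, adjusted p = 0.0236) stood above that of 94.2% of genes, and the control ratio above that of 98.0%. Mnt rested on the lowest input of the 10 members.

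Among the mTORC1 genes, Mtor itself had IPs of 5.39 and 7.51 FPKM in tet-LIN28B cells and 12.34 FPKM in control cells. For Mtor, IP/input was 0.452 and 0.655 in tet-LIN28B cells and 0.897 in control cells, and its tet-LIN28B log2 ratio was -0.78 (SE 0.21, adjusted p = 0.0387). Both mice were under the control. Rptor, whose product brings substrates to the kinase, had IPs of 4.3 and 5.9 FPKM in tet-LIN28B cells and 16.88 FPKM in control cells. For Rptor, IP/input was 0.475 and 0.670 in tet-LIN28B cells and 1.41 in control cells, so that the control was over 1 and both tet-LIN28B mice under it. The log2 ratio of Rptor was -0.72 (SE 0.21, adjusted p = 0.0469). The calls of Mtor and Rptor were the least secure, since a pseudocount of 0.1 (adjusted p = 0.0543 and 0.0609), TPM (0.0683 and 0.0850) and centring (0.0835 and 0.115) each ended them, and a fit with no trend ended that of Rptor (0.0532).

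Rheb, the GTPase that turns the kinase on, had IPs of 41.34 and 68.53 FPKM in tet-LIN28B cells and 81.02 FPKM in control cells. IP/input of Rheb was 0.329 and 0.521 in tet-LIN28B cells and 0.636 in control cells, and the log2 ratio was -1.26 (SE 0.22, adjusted p = 0.0130). Like Myc, it was under 1 in all 3 mice, and its control ratio was lower than that of all but 8.88% of genes. Rps6kb1, the kinase that mTORC1 activates, had IPs of 18.34 and 32.04 FPKM in tet-LIN28B cells and 24.33 FPKM in control cells. IP/input of Rps6kb1 was 0.694 and 1.17 in tet-LIN28B cells and 0.964 in control cells, with the mice on either side of the control. Its log2 ratio of -0.14 did not pass (adjusted p = 0.639) and was 0.16 when centred.

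Eif4ebp1 and Eif4ebp2, which encode 4E-BP1 and 4E-BP2, gave the widest gaps between the genotypes. Eif4ebp1 had IPs of 19.16 and 39.58 FPKM in tet-LIN28B cells and 156.25 FPKM in control cells. The ratio to input was 0.146 and 0.266 in tet-LIN28B cells and 0.973 in control cells. The tet-LIN28B log2 ratio of -2.30 (SE 0.25, adjusted p = 0.00489) was the lowest of the 10, with 5.38% of all genes below it. Eif4ebp2 had IPs of 7.8 and 12.23 FPKM in tet-LIN28B cells and 57.54 FPKM in control cells, with IP/input of 0.550 and 0.723 in tet-LIN28B cells and 2.99 in control cells. It was thus under 1 in both tet-LIN28B mice and over 1 in the control, whose ratio stood above that of 98.7% of genes. Its tet-LIN28B log2 ratio of -0.61 missed the threshold (adjusted p = 0.0553), and passed with the minimum raised to 10 FPKM (adjusted p = 0.0358). Without any filter on low values (26505 genes), no member and no gene passed in this comparison.

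**Figure D2:**
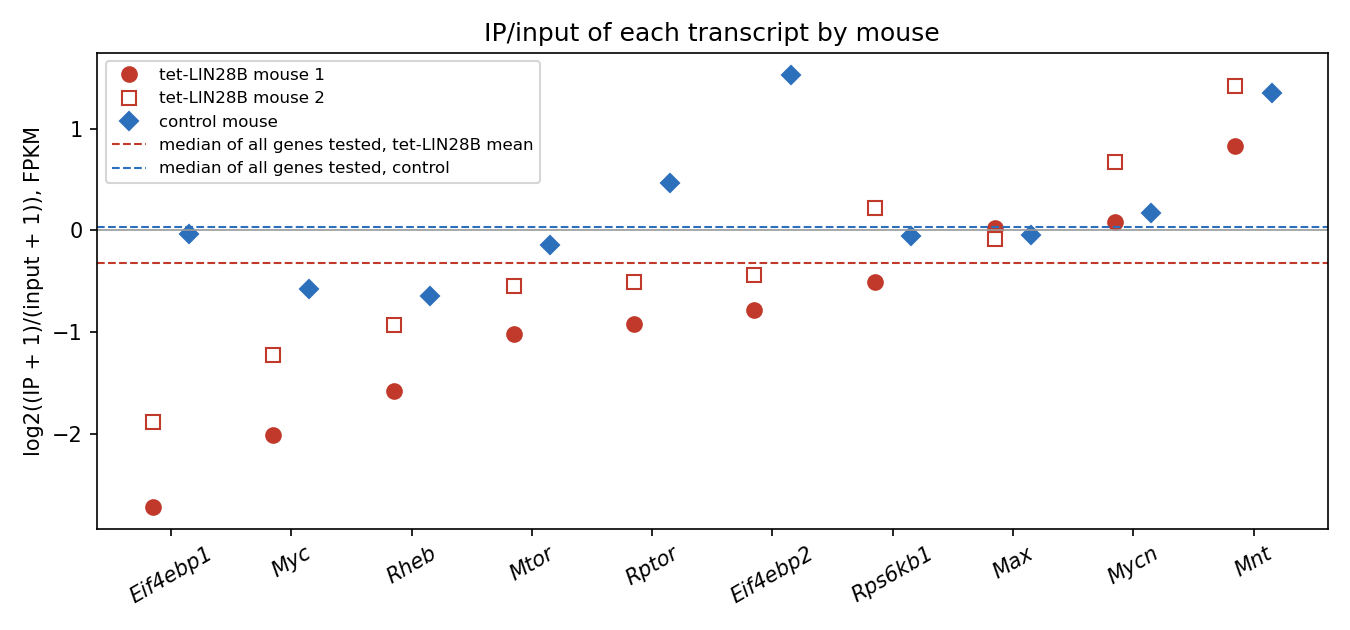
Log2 IP/input (1 FPKM added to both) of each gene in tet-LIN28B mouse 1 (filled circle), tet-LIN28B mouse 2 (open square) and the control mouse (blue diamond), in the order of the tet-LIN28B mean. Dashed lines are the medians of all genes tested, -0.32 in tet-LIN28B and 0.04 in the control. Eif4ebp1, Rptor and Eif4ebp2 have the control far above both tet-LIN28B mice, and mouse 2 is above mouse 1 for all genes but Max.

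Both tet-LIN28B mice agreed on the side of 1 for 8 of the 10 members. IP/input was under 1 in both mice for 6 (54.2% of all genes) and over 1 in both for 2, Mycn and Mnt (30% of all genes). In the control, 6 members were under 1 and 4 over. Mouse 2 had the higher ratio for 9 of 10 members, with Max as the exception. The median of mouse 2 minus mouse 1 was 0.59 on the log2 scale over the 10 members and 0.15 over all genes tested. The members of low ratio thus reached their lowest values in mouse 1, such as Myc at 0.229 and Eif4ebp1 at 0.146.

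The third question was whether IP/input differed between the genotypes, with the control as the background of the beads. No member passed (limma, adjusted over 12576 genes), while 0.382% of all genes were higher and 2.53% lower in tet-LIN28B cells. Eif4ebp2 came nearest with a log2 difference of -2.14 (SE 0.33, 95% interval -3.00 to -1.28, unadjusted p = 0.00171, adjusted p = 0.0514). Eif4ebp1 followed at -2.26 (SE 0.43, 95% interval -3.40 to -1.12, unadjusted p = 0.00435, adjusted p = 0.0626). As a plain ratio of ratios, the control IP/input was 4.73 times the tet-LIN28B mean for Eif4ebp1 and 4.69 times for Eif4ebp2. Of all genes, 4.68% lay below the log2 difference of Eif4ebp1 and 5.44% below that of Eif4ebp2. Both were called with a minimum of 10 FPKM in the mean input (adjusted p = 0.0161 for Eif4ebp1 and 0.0129 for Eif4ebp2) and with a pseudocount of 5 (0.0458 and 0.0354). With TPM, Eif4ebp2 alone was called (adjusted p = 0.0406). At 10 FPKM, where 7 members entered, 1130 of 6347 genes were called lower and 300 higher. More genes overall were called lower with a pseudocount of 5 and with TPM as well. Over 9 alternatives, Eif4ebp1 was called in 2 (limma, adjusted p up to 0.227) and Eif4ebp2 in 3 (up to 0.143).

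Rptor differed by -1.18 (95% interval -2.12 to -0.24, unadjusted p = 0.0242, adjusted p = 0.116), and it was the third of the 3 members with an unadjusted p under 0.05, against 23.3% of genes lower and 6.4% higher at that level. Myc differed by -1.04 (95% interval -2.18 to 0.09, adjusted p = 0.193), Mtor by -0.64 and Rheb by -0.61. The log2 differences of Max (0.01), Mycn (0.21), Rps6kb1 (-0.09) and Mnt (-0.23) were nearer to 0, and their sign was not settled for 3 of them. That of Max was -0.16 with TPM, and those of Rps6kb1 and Mnt were 0.25 and 0.12 when centred. With 1 FPKM added to each value, both tet-LIN28B mice lay below the control for 6 members, against 60% of all genes. These were Myc, Mtor, Rptor, Rheb, Eif4ebp1 and Eif4ebp2. Both mice lay above the control for none, against 24.7% of all genes. On the plain ratio, Mnt was also below in both mice, though barely in mouse 2 (3.390 against 3.392 in the control).

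The median log2 difference was -0.62 over the 10 members and -0.39 over all genes, and the median over all genes was -0.51 with TPM. Relative to the median gene of each mouse, Eif4ebp1 (-1.92), Eif4ebp2 (-1.80), Rptor (-0.84), Myc (-0.70), Mtor (-0.30) and Rheb (-0.27) remained on the lower side. Mycn (0.56), Max (0.35), Rps6kb1 (0.25) and Mnt (0.12) lay on the higher side. None of these centred differences passed the test.

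**Figure D3:**
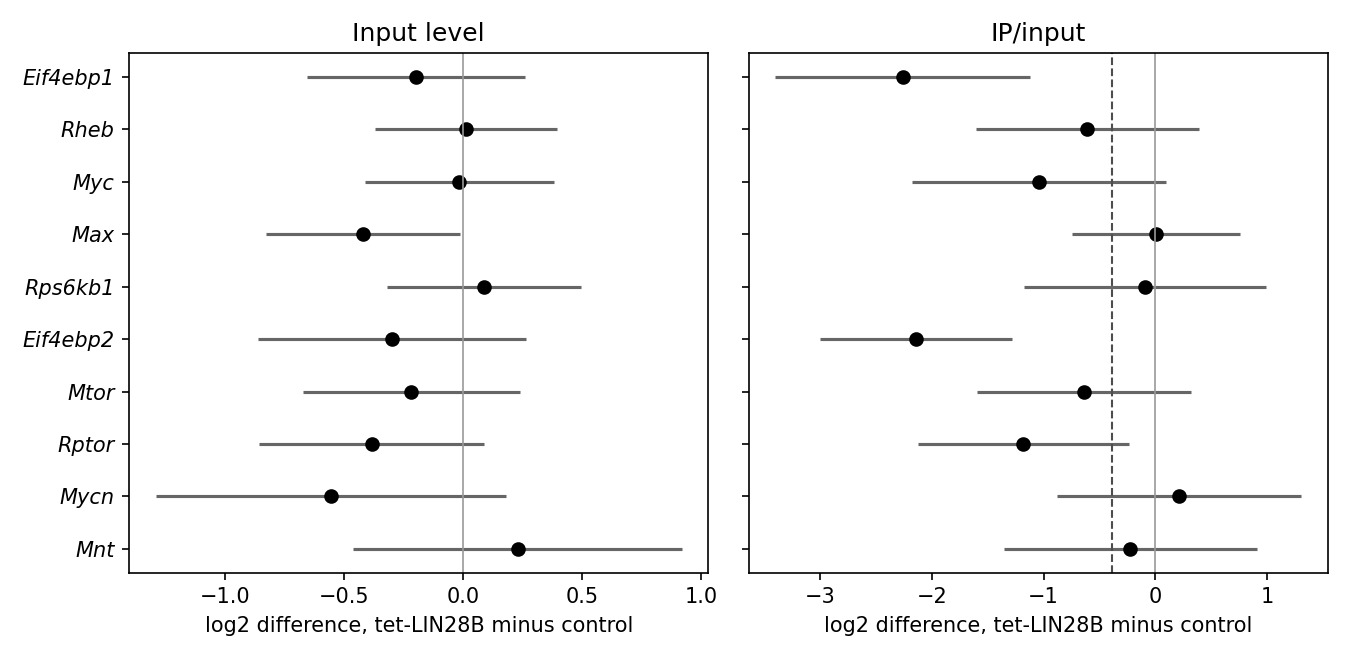
Log2 difference of each gene, tet-LIN28B minus control, in input level (left) and in IP/input (right), with 95% intervals from limma, n = 2 tet-LIN28B mice and 1 control mouse. The dashed line is the median IP/input difference of all genes tested (-0.39). Input differences lie between -0.56 and 0.23, while IP/input differences reach -2.14 for Eif4ebp2 and -2.26 for Eif4ebp1.

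The genes most like Myc across the 6 libraries were named by the smallest distance between patterns, taken as log2(FPKM + 1) minus the mean of each gene, among 6346 other genes that averaged 10 FPKM or more in the inputs. They were Trp53, the tumour suppressor p53, at a distance of 0.154, Idh3a, a subunit of a citric acid cycle enzyme, at 0.160, and Gnas, a G protein subunit, at 0.182. The IP/input of Trp53 was 0.221 and 0.453 in tet-LIN28B cells and 0.605 in control cells, close to 0.229 and 0.416 against 0.664 for Myc. That of Idh3a was 0.268 and 0.402 in tet-LIN28B cells and 0.655 in control cells.

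The 10 members were then set beside other genes of both pathways. Of 12 other Myc network factors, 10 were tested. In tet-LIN28B cells the IP held more than the input of 3 and less of 5, against 13.9% and 31% of all genes. The median log2 ratio of these factors was -0.49. None of them differed between the genotypes by the test, and their median difference was -0.71. Over all genes these medians were -0.32 and -0.39. Mlx, which pairs with Mnt and some of the Mxd repressors, had IP/input of 0.202 and 0.416 in tet-LIN28B cells and 0.981 in control cells. The difference was -1.64 (adjusted p = 0.110). Mlxip, which encodes MondoA, the glucose-sensing partner of Mlx, differed by -1.95 (adjusted p = 0.0906). At the other end, Mga, another Max-binding factor, had 2.44 and 2.60 in tet-LIN28B cells and 2.21 in control cells, so that it was over 2 in all 3 mice, with the control lowest. The kinase gene Pim1 had 1.69 and 1.47 in tet-LIN28B cells and 1.80 in control cells.

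Of 10 other subunits and assembly factors of the mTOR complexes, 8 were tested. In the tet-LIN28B IPs, 4 were lower and 0 higher than in the inputs, against 31% and 13.9% of all genes. The median log2 ratio of the 8 was -0.75, and the median difference from the control -0.96, with 0 calls. Over all genes these medians were -0.32 and -0.39. Only 2 of the 8 reached a mean input of 10 FPKM. Akt1s1, which encodes the mTORC1 inhibitor PRAS40, had IP/input of 0.222 and 0.428 in tet-LIN28B cells and 2.32 in control cells, a log2 difference of -2.57 (adjusted p = 0.0540). Its IPs were low, at 2.28 and 4.28 FPKM in tet-LIN28B cells, against 28.66 FPKM in control cells. The mTORC2 subunit gene Mapkap1 had 0.959 and 1.17 in tet-LIN28B cells and 1.35 in control cells. The pattern of Akt1s1, under 1 with LIN28B and over 1 in the control, was not particular to it. Eif4ebp2 and Rptor showed it among the members, and Mlst8 and Prr5 in this list.

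Of 35 upstream regulators of mTORC1, 33 were tested. In the tet-LIN28B IPs, 6 were higher and 12 lower than in the inputs, against 13.9% and 31% of all genes. Only 1 differed between the genotypes, against 0.382% of all genes higher and 2.53% lower. This was Lamtor5, a subunit of the Ragulator complex that holds mTORC1 at the lysosome, with IPs of 36.63 and 54.04 FPKM in tet-LIN28B cells and 404.34 FPKM in control cells. Its IP/input was 0.0882 and 0.113 in tet-LIN28B cells and 0.741 in control cells, a log2 difference of -2.86 (adjusted p = 0.0429). Tsc2, which encodes the GTPase-activating protein that shuts off Rheb, had 0.108 and 0.206 in tet-LIN28B cells and 0.998 in control cells, a difference of -2.24 (adjusted p = 0.0521). The IPs of Tsc2 were low, at 1.16 and 4.3 FPKM in tet-LIN28B cells, against 18.47 FPKM in control cells. Its inputs differed between both tet-LIN28B mice (10.78 and 20.85 FPKM), with the control at 18.5 FPKM. Lamtor2 and Lamtor3, of the same Ragulator complex as Lamtor5, lay at the other end of this list. Lamtor2 had 1.67 and 1.36 in tet-LIN28B cells against 0.878 in control cells, and Lamtor3 had 1.46 and 1.44 against 0.856, with differences of 0.78 and 0.75 that were not called (adjusted p = 0.165 and 0.157). Both were called among the 1460 genes with at least 50 FPKM in the 4 tet-LIN28B libraries (adjusted p = 0.0385 and 0.0273). That minimum includes the tet-LIN28B IPs but not the control IP. It removes genes that are low in the tet-LIN28B IPs, Lamtor5 among them, so these calls are no separate evidence.

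Of the other mTORC1 effectors, 16 of 17 were tested. In the tet-LIN28B IPs, 4 were higher and 0 lower than in the inputs, against 13.9% and 31% of all genes. The median log2 ratio of the 16 was 0.08 in tet-LIN28B cells and 0.24 in control cells. Their median difference from the control was -0.35, near the -0.39 over all genes, and none was called. Pdcd4, which encodes an inhibitor of the helicase eIF4A, had IP/input of 2.79 and 2.68 in tet-LIN28B cells and 1.19 in control cells, a difference of 1.18 (adjusted p = 0.0819). The scaffold gene Eif4g1 had 2.46 and 3.24 in tet-LIN28B cells and 1.82 in control cells. Rps6, whose protein is a substrate of S6 kinase, was near 1 with LIN28B (1.06 and 1.04) and at 1.91 in control cells. Rps6kb2, the paralogue of Rps6kb1, had 0.484 and 0.924 in tet-LIN28B cells and 1.19 in control cells.

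All 20 textbook target genes of MYC were tested. In the tet-LIN28B IPs, 6 were higher and 6 lower than in the inputs, against 13.9% and 31% of all genes. The 20 targets had a median log2 ratio of 0.27 and a median difference from the control of 0.03. Over all genes these medians were -0.32 and -0.39. Fbl, which encodes the nucleolar methyltransferase fibrillarin, had IP/input of 2.84 and 2.27 in tet-LIN28B cells and 1.07 in control cells, a difference of 1.24 (adjusted p = 0.0826). The ribosome biogenesis gene Wdr43 had 3.32 and 2.41 in tet-LIN28B cells and 1.36 in control cells. Ccnd2, the gene of cyclin D2, had IPs of 143.48 and 163.4 FPKM in tet-LIN28B cells and 951.16 FPKM in control cells, and IP/input of 0.414 and 0.523 against 2.86. Its difference of -2.61 passed (adjusted p = 0.0433). Shmt2, of mitochondrial serine metabolism, differed by -2.02 (adjusted p = 0.0716). With the minimum raised to 10 FPKM, Mlx (limma, adjusted p = 0.0473), Mlxip (0.0302), Akt1s1 (0.0218), Tsc2 (0.0231) and Shmt2 (0.0203) were called as lower in IP/input of tet-LIN28B cells than of control cells. Pdcd4 (0.0355) and Fbl (0.0396) were called as higher. Of all 6347 genes at that minimum, 1130 were called lower and 300 higher. The named genes were picked as the ends of their lists by this same difference, so their calls are no separate evidence. Akt1s1 and Tsc2 were also called with a pseudocount of 5 and with TPM, and thus in 3 of 9 alternatives each. Their tet-LIN28B IPs were under 5 FPKM. Fbl was also called at 50 FPKM (adjusted p = 0.000257), a minimum set on the tet-LIN28B IPs and not on the control IP. In input level, 0 genes of any of these lists were called.

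**Figure D4:**
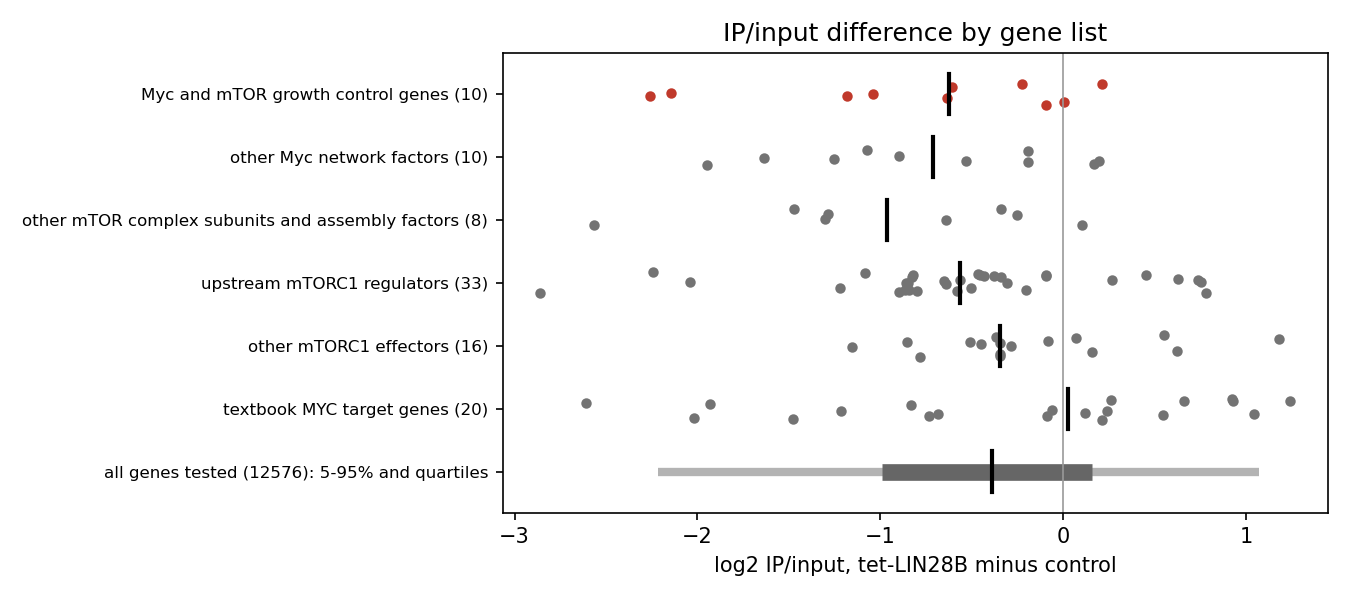
Log2 difference in IP/input, tet-LIN28B minus control, for each tested gene (points, shifted at random up and down) of the 10 Myc and mTOR growth control genes (red) and of 5 other lists (grey), with the number of genes in brackets and the median as a black line. The bottom bar shows the 5th to 95th percentile and the quartiles of all 12576 genes. Medians of the lists lie between -0.96 and 0.03, against -0.39 over all genes, and the points of every list overlap those of the others.

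Across the 10 members, Spearman's correlation of GGAG per kilobase with log2 IP/input was 0.50 in tet-LIN28B cells and 0.39 in control cells. Over 10271 tested genes with a transcript model it was -0.015 in tet-LIN28B cells and 0.086 in control cells. The input level of the members ran the other way, with a correlation of -0.76 with the ratio in tet-LIN28B cells and -0.60 in control cells, against -0.081 and -0.21 over the same 10271 genes. Transcript length went with a higher ratio over those genes, at 0.37 in tet-LIN28B cells and 0.43 in control cells. Genes of a sample share library and lysate and are not independent replicates, so these values are given as a description.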

How the data were processed

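The submitters' notes name STAR 2.7.1, RSEM 1.28 and the build mm10, and the authors deposited FPKM per gene. The release of the gene annotation was not stated in what was read here. FPKM carry no counts, so no counting interval is given. Titles gave the fraction, genotype and mouse of each library, and the column names match them. The description text ends with the other fraction in each sample, and the titles were followed.

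Values were fitted with limma 3.58.1 in R 4.3.3 on log2(FPKM + 1) of the inputs, and on log2((IP + 1)/(input + 1)) of each mouse with both genotypes in 1 fit. Genes averaging 1 FPKM or more in the inputs entered, and an adjusted p (Benjamini-Hochberg) under 0.05 was called. Moderation used a trend on mean expression, and the total degrees of freedom were 3.09 for inputs and 4.56 for ratios. A trend on the mean ratio was run first, and its results were seen before this choice. IP and input come from the same mouse, which pairs them. The differences between both tet-LIN28B mice in input and in IP correlated at r = 0.132 across genes. No pair of libraries was identical (0 pairs). The fits were tested on simulated data.

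Members and gene lists were chosen with earlier results of these data known. Of each list, the text names the 2 highest and the 2 lowest in IP/input difference among genes averaging 10 FPKM or more in the inputs. For Myc it names the 3 nearest genes by Euclidean distance. Transcripts are the longest coding models of GENCODE M21 (GRCm38) with a complete coding sequence, read with Python 3.11.15, and an earlier choice of models was replaced because it cut Myc short. All 22 sequences read from transcripts were identical to the GRCm38 genome at their coordinates. The search for TACCTC was added after CTACCTC gave no match in the 3′UTRs.

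Alternatives varied the pseudocount, the filter, the scaling, the centring, the trend and the replicate block, and left out each tet-LIN28B mouse. Mycl, Mlxipl, Deptor, Prr5l, Fnip2, Sesn2 and Lpin1 were under the minimum and were not tested. Western blots and flow cytometry were not analysed here.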

Additional observations from a re-analysis of the deposited data

Results flagged for a closer look

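2 of the genes named beside the members differed between the genotypes in IP/input by limma's contrast. Lamtor5, of the Ragulator complex, had a log2 difference of -2.86, tet-LIN28B minus control (adjusted p = 0.0429), and the cyclin gene Ccnd2 had one of -2.61 (adjusted p = 0.0433). Both tet-LIN28B mice were below the control in each. Over the alternatives, the adjusted p ran from 0.00758 to 0.116 for Lamtor5 (9 settings) and from 1.69e-14 to 0.123 for Ccnd2 (10 settings). Only Ccnd2 met the minimum of 50 FPKM, which is set on the tet-LIN28B libraries. With 2 mice against 1, so small a value rests on the spread shared across genes. It does not measure the spread between mice. No filter, a pseudocount of 0.1, no trend, a trend on the mean ratio and no replicate block each ended both calls.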

How the results depend on the processing

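Of 241 values of the members under an alternative with a test, 213 kept their sign and their side of the threshold, 13 lost a call, 8 gained one and 7 changed sign. With no filter on low values (26505 genes), 0 of 10 members were called for IP/input in tet-LIN28B, against 6. For the difference from control, 2 of the 7 members that entered were called with the filter raised to 10 FPKM. With a pseudocount of 5 it was 2 of 10 and with TPM 1 of 10, against 0 of 10. Calls over all genes rose at the same settings, as given below. At 10 FPKM, 1130 of 6347 genes were called lower, against 318 of 12576. The sign changed for Myc in input with TPM (0.0278), for Max in tet-LIN28B with TPM (0.0675) and centring (0.27) and in the difference with TPM (-0.16). With centring it changed for Rps6kb1 in tet-LIN28B (0.16) and in the difference (0.25), and in the difference for Mnt (0.12), Pim1 (0.15) and Mapkap1 (0.00386). The cause was not tested. Without the replicate block, 6 members were called in tet-LIN28B and 0 in the difference, as with it. 0 members met 50 FPKM in the 4 tet-LIN28B libraries, so that minimum gives them no value. Leaving out a tet-LIN28B mouse gave values with no test, from -2.72 to -1.88 for Eif4ebp1 and from -2.01 to -1.22 for Myc in tet-LIN28B, and from -2.32 to -1.97 for Eif4ebp2 and from -2.68 to -1.85 for Eif4ebp1 in the difference.

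Over all genes, the difference from control gave 48 higher and 318 lower. It gave 300 and 1130 of 6347 genes at 10 FPKM, 339 and 324 of 1460 at 50 FPKM, 176 and 764 with a pseudocount of 5, 92 and 668 with TPM, 68 and 188 with centring and 5 and 16 with a trend on the mean ratio. That fit was run first, and the trend on mean expression was chosen after seeing its results. It gave 0 and 0 with no filter, a pseudocount of 0.1, no trend or no replicate block. For tet-LIN28B alone, 1750 higher and 3900 lower became 2908 and 2979 with centring, 522 and 512 at 50 FPKM and 0 and 0 with no filter. The minimum of 50 FPKM includes the tet-LIN28B IPs, so genes low in them were removed before the test. For inputs, 0 and 0 became 13 and 5 at 10 FPKM, 18 and 14 with centring, 4 and 0 with TPM and 0 and 5 with a pseudocount of 5. The depth is unknown, so its effect on low transcripts such as Mnt and Mycn was not tested.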
